A study of Mus musculus with 34 samples.

Results

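Collagens are the main structural proteins of the extracellular matrix, and 40 genes for collagen chains were followed across every sample of a study that set heart muscle cells made from fibroblasts and from stem cells beside those of the newborn heart. The 40 are all genes whose name in the array files has the form of a collagen chain (Col, a type number, a and a chain number). They are 40 of 19408 genes tested, and 59 of the 55681 probes on the array carry such a name. By textbook class they are 11 fibrillar chains, 6 basement membrane chains of type IV, 3 beaded filament chains of type VI, 3 hexagonal network chains of types VIII and X, 9 fibril-associated chains (FACIT), 2 multiplexins, 4 transmembrane chains and 2 others. All 40 passed the filter on dim probes, which asks that both arrays of some group read the probe well above background, and 19 were well above background on all 34 arrays. The other 21 entered the test through the groups in which they were high, so their passing shows nothing by itself. Probes that carried older names for other chains, and chains with no probe of such a name, were not analysed here.

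RNA came from mouse cells of CD1 strain and aMHC-GFP genotype, a green fluorescent reporter under the heart muscle myosin promoter that every group carried. Gene expression was read on single-colour Agilent arrays, 2 for each of 17 groups. The course of direct reprogramming held cardiac fibroblasts at day 0 (CF D0) and the same kind of cells on days 3, 5, 7, 10 and 14 after infection with a retrovirus that carries the heart factors Mef2c, Gata4 and Tbx5 as 1 polycistronic gene (MGT), or after infection with LacZ, the control gene for a bacterial enzyme (LacZ). The end points were induced cardiomyocytes 4 weeks after MGT (iCM), cardiomyocytes differentiated from 2 lines of induced pluripotent stem cells (iPSC1-CM D13 at day 13 for one line, iPSC2-CM D9 and iPSC2-CM D29 at days 9 and 29 for the other), and neonatal cardiomyocytes (neoCM) and cardiac fibroblasts (neoCF) isolated from pups at postnatal day 1.5. The stem cell lines had been made from cardiac fibroblasts with Oct4, Sox2, Klf4 and cMyc, and each is a single line. The fibroblasts behind both routes were of the same origin, per the design text, contractile cells were kept in 1 medium with growth factors, and no sort by the reporter is named.

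Collagen chains wind into a triple helix in the endoplasmic reticulum, after prolines and lysines of the chains have been hydroxylated. Fibrillar collagens such as types I, III and V then lose their end pieces outside the cell, assemble into fibrils and are cross-linked, and cardiac fibroblasts are the main source of types I and III in the heart. Type IV chains form the sheet-like network of basement membranes, which surrounds each heart muscle cell. FACIT chains decorate fibrils, and types VIII and X form short-chain networks, and type X is best known from hypertrophic cartilage.

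Promoters are shown of 2 chains that rose under MGT (Col10a1, with the largest rise, and Col4a4, which rose beside its neighbour Col4a3), of the chain with a MEF2 box, the motif bound by Mef2c (Col13a1), and of the type IV pair that shares its start (Col4a1 and Col4a2). The windows run from 250 bases before to 50 bases after the annotated start and come from RefSeq on build GRCm38.p6. Of the 40 genes, 32 had a window, 35 windows in all among 32851. Col1a1, Col2a1, Col4a3, Col5a2, Col9a3, Col12a1, Col14a1 and Col22a1 had none. Capitals in the windows of Col10a1, Col4a4 and Col13a1 mark the MEF2 box, the GATA motif AGATAA, the T-box motif AGGTGT and the TATA box TATAAA. Capitals in those of Col4a1 and Col4a2 mark the CCAAT box and the Sp1 motif GGGCGG, all searched on both strands.
Col10a1 promoter, chr10:34389731-34390030, plus strand: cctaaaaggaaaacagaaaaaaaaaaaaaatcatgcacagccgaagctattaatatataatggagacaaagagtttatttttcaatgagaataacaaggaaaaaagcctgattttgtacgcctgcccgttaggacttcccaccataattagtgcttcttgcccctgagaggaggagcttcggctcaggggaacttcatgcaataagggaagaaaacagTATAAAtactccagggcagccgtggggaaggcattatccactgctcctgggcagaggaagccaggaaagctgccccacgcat
Col4a4 promoter, chr1:82586800-82587099, minus strand: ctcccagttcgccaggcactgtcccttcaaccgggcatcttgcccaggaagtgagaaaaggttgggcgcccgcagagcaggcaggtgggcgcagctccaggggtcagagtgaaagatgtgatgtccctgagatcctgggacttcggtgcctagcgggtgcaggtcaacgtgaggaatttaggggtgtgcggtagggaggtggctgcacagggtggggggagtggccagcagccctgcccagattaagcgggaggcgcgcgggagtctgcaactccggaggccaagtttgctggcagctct
Col13a1 promoter, chr10:61979059-61979358, minus strand: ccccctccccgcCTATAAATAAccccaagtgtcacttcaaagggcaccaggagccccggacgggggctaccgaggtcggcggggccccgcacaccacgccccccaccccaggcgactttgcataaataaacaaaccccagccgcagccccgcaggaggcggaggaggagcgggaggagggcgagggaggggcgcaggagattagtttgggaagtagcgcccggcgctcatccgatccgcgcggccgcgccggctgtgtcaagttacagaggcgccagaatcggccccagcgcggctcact
Col4a1 promoter, chr8:11312777-11313076, minus strand: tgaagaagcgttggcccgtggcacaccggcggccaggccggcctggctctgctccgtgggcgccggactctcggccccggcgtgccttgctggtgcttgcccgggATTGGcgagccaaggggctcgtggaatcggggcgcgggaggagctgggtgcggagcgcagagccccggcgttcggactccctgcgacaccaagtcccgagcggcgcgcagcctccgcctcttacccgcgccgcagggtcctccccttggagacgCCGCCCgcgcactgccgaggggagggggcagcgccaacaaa
Col4a2 promoter, chr8:11312555-11312854, plus strand: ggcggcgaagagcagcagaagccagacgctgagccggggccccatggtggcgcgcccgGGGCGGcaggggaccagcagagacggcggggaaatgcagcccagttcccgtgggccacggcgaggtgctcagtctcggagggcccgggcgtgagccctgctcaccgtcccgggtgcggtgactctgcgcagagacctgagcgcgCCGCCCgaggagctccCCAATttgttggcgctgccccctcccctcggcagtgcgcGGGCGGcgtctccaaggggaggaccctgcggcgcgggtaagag
The windows of Col4a1 and Col4a2 share 78 bases, read on opposite strands. In the annotation Col4a3 and Col4a4 are also direct neighbours, and so are Col4a5 and Col4a6. The MEF2 box, which holds TATAAA within it in the Col13a1 window, was found in 1 of 35 collagen windows (2.86%), that of Col13a1, and in 3.19% of all windows. TATAAA was found in 14.3% of collagen windows, among them that of Col10a1 at position -32, against 13.6% of all windows. AGATAA and AGGTGT each stood in 5.71% of collagen windows, against 11.2% and 13.7% of all windows. CCAAT stood in 34.3% against 37.4%, and GGGCGG in 60.0% against 35.7%. Collagen windows had a median of 60.0% G and C and 12 CpG, against 52.7% and 7 for all windows. These are matches of letters in a window and nothing more.

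Levels are log2 intensities after subtraction of the 75th percentile of each array, so 0 is that percentile and a step of 1 is a doubling. Spots well above background numbered 28715 to 44881 of 59305 an array. The 2 arrays of a group correlated across genes at 0.984 to 0.997 in 16 groups and at 0.895 in iPSC2-CM D29, whose arrays stand apart from each other. A gene was called where the limma fit over all 34 arrays gave a Benjamini-Hochberg adjusted p under 0.05 and a change of at least 2-fold. All p-values below come from that fit, and errors are standard errors (SE). The fit holds 1 spread for each gene, pooled over the sample pairs of all groups. A pair that stands far apart, as in iPSC2-CM D29, therefore widens the SE of that gene in every comparison. The labels do not say whether the 2 samples of a group were separate cultures, so the p-values measure only the spread between these samples. Per the file headers, 6 slides held the arrays, and scanning took 3 days. MGT and LacZ of days 3 to 10 shared slides day by day, and so did the iPSC-derived groups. LacZ D3 and LacZ D10 lay on different slides, so slide and day cannot be told apart between them. MGT D14 and LacZ D14 lay on different slides of 1 scan day, and a slide effect cannot be told apart from theirs. Comparisons of neoCM or iCM with neoCF, LacZ D14 or iPSC-derived cells lay across scan days, where scan day and group cannot be told apart.

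**Figure D1:**
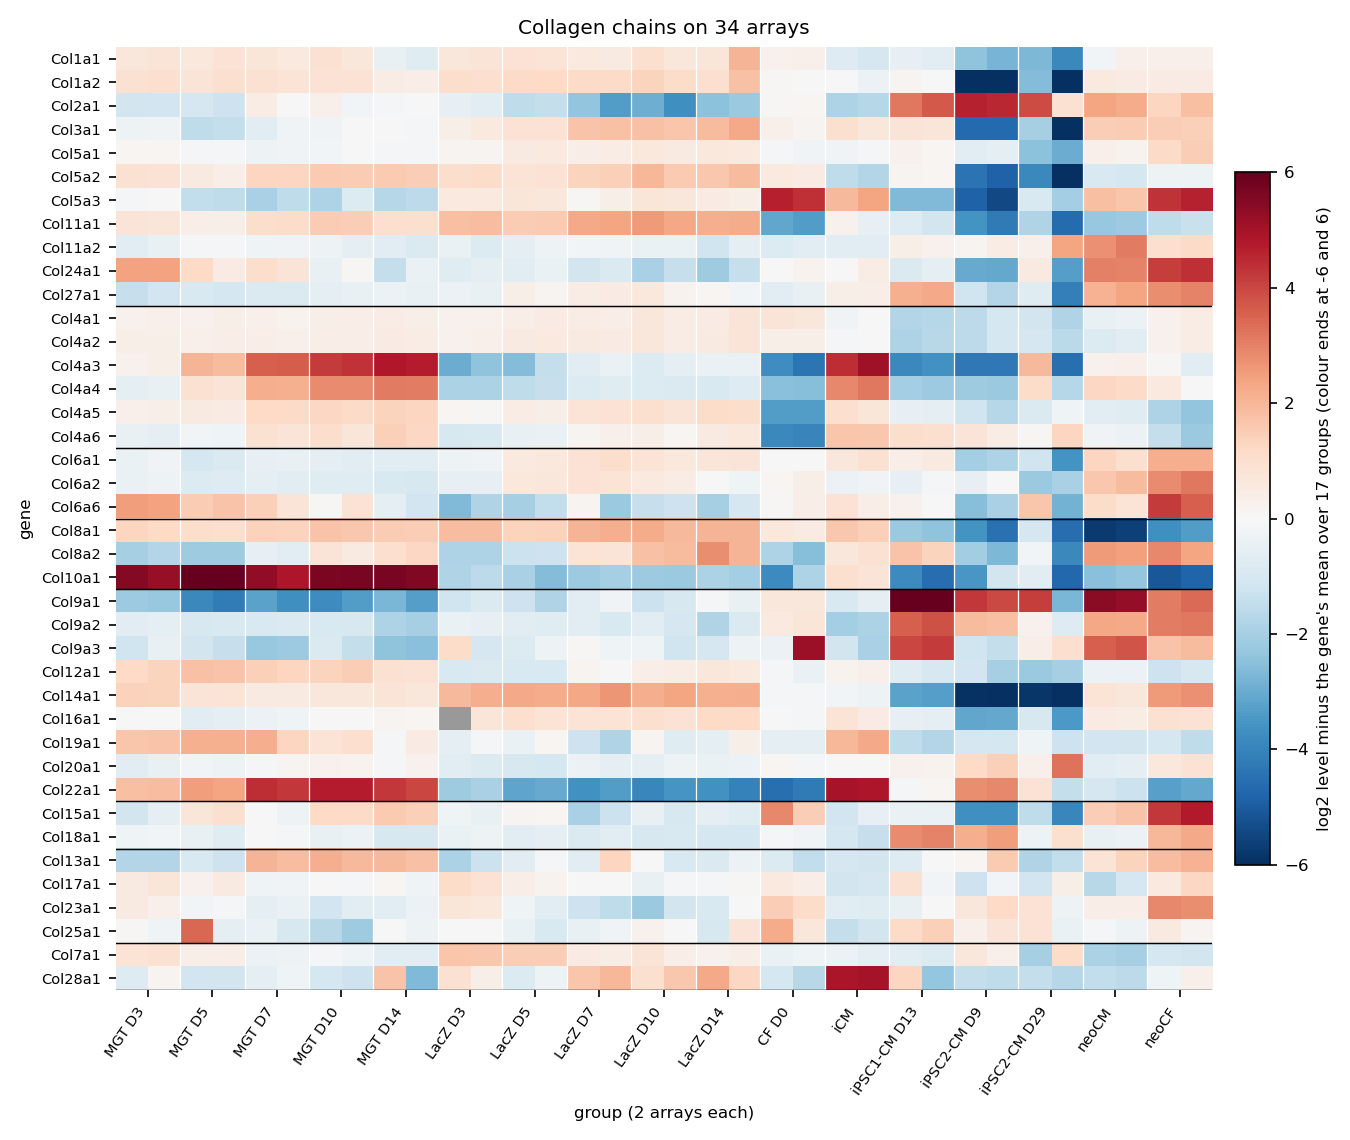
Log2 level of each of 40 collagen chains (rows, by class between the black lines) on 34 arrays (columns, 2 for each group), minus the mean of that gene over the 17 groups, with red above and blue below it and grey for the 1 missing value. Col10a1 and Col22a1 are red in all MGT columns, Col4a3 and Col4a4 from day 5, and Col1a2, Col3a1 and Col14a1 are blue in iPSC2-CM D9.

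Against LacZ, MGT cells had Col10a1, Col22a1, Col4a3 and Col4a4 higher and Col3a1 and Col5a3 lower, while the type I chains Col1a1 and Col1a2 were not called over days 3 to 10. Over the mean of days 3 to 10, 9 of 40 chains rose and 10 fell, 47.5% of the members, where 9.92% of all genes were called (5.47% higher and 4.45% lower). With the authors' log2 values the split was 10 higher and 5 lower, and on day 10 it was 6 higher and 4 lower with normexp background correction and quantile normalization. On day 3, 6 chains rose and 0 fell, where 5.05% of genes were called (3.19% higher and 1.86% lower). On day 5, 7 rose and 4 fell, where 8.29% were called (4.82% higher and 3.46% lower). On day 7, 8 rose and 3 fell, where 8.77% were called (5.26% higher and 3.51% lower). The members' share was above that of all genes on each of these days. On day 10, 8 rose and 3 fell, where 8.61% were called (5.3% higher and 3.31% lower). On day 14, 7 rose and 3 fell, where 13% were called (5.93% higher and 7.05% lower), and with slide as a random block 7 rose and 6 fell. For the 0 chains called lower on day 3 by limma, 2 had an unadjusted p under 0.05. The median log2 change of the 40 over days 3 to 10 was -0.10, beside -0.09 for all genes. In bulk samples of this kind, fewer cells of a type and less RNA per cell cannot be told apart.

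**Figure D2:**
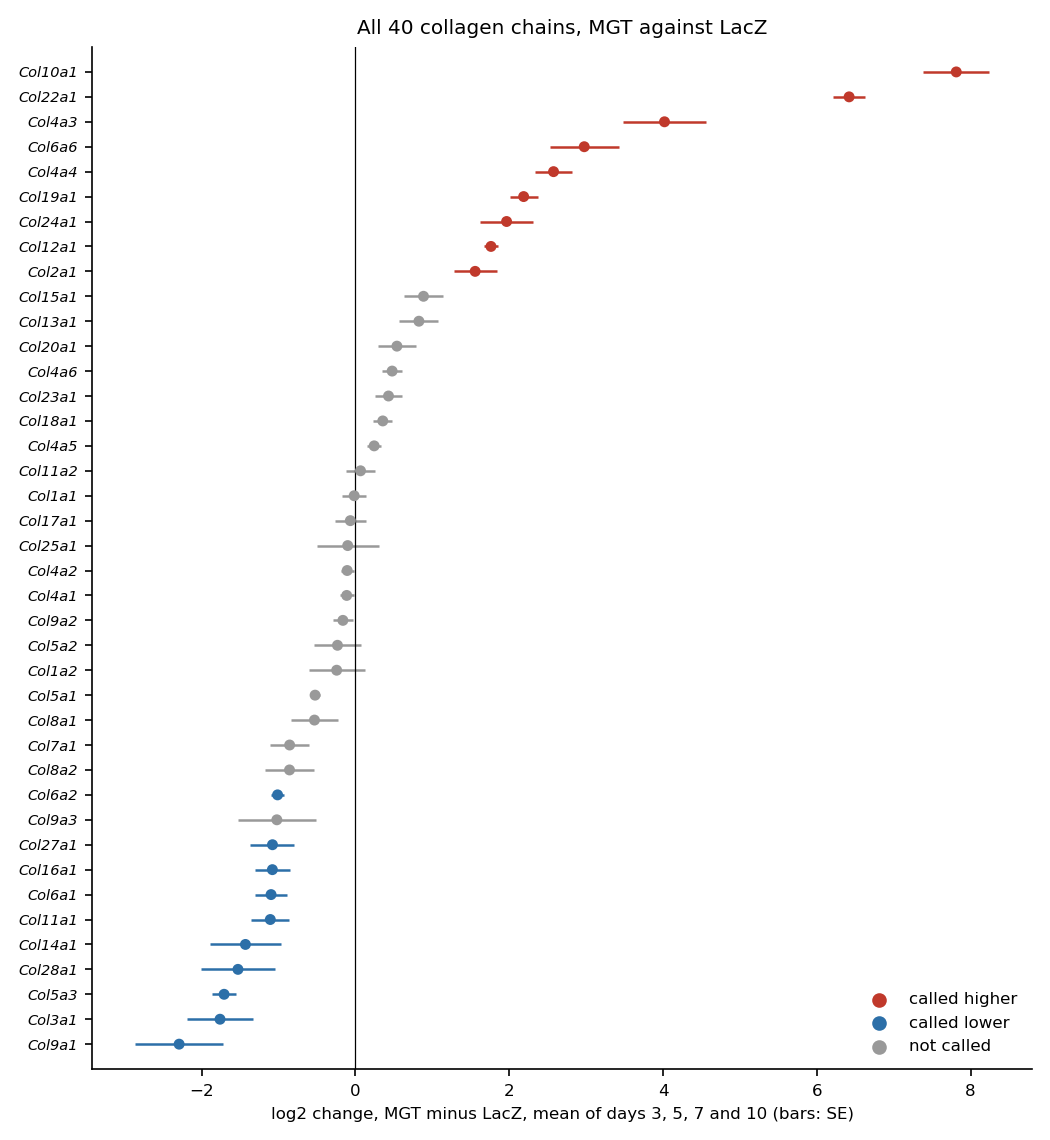
Log2 change between MGT and LacZ, averaged over days 3, 5, 7 and 10, for all 40 chains in order of size, with bars for the SE. Red marks the 9 chains called higher, blue the 10 called lower and grey the 21 not called, with Col10a1 at 7.81 at the top and Col9a1 at -2.29 at the bottom.

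Among the network chains, Col10a1, the only chain of type X collagen, was the most changed. Its level in MGT was 2.58 and 2.30 on day 3, 3.95 and 4.00 on day 5, 2.38 and 1.92 on day 7, 2.71 and 2.74 on day 10 and 2.78 and 2.64 on day 14. In LacZ it was -4.75 and -4.49, -4.89 and -5.53, -5.10 and -4.95, -5.10 and -5.14 and -4.81 and -4.97 on the same days. Every MGT array was above every LacZ array, and the LacZ values sat at the edge of detection. The log2 change was 7.06 ± 0.86, adjusted p = 1.1e-05 on day 3 and 9.19 ± 0.86, adjusted p = 2e-07 on day 5, when it was at least 318-fold, the bound against the lowest signal well above background on the LacZ arrays. It was 7.84 ± 0.86, adjusted p = 1.3e-06 on day 10, at least 155-fold. The probe behind these values lies at chr10:34116831-34116890 in mm9. A second Col10a1 probe at chr10:34118047-34118106 was well above background on none of the 8 MGT arrays of days 3 to 10 and on 1 of the 8 LacZ arrays, so the rise rests on 1 probe. In the annotation Col10a1 overlaps another gene, Nt5dc1.

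The other network chains form type VIII collagen, known from blood vessels and the eye. Col8a1 was not called at any day and differed by -0.53 ± 0.31, adjusted p = 0.19 over days 3 to 10. Col8a2 has 2 probes that went opposite ways. The probe with the higher signal, at chr4:125991441-125991500 in mm9, had levels of -1.80 and -2.00 in MGT and -0.79 and -0.66 in LacZ on day 10, and its change over days 3 to 10 was -0.86, not called. The other, at chr4:125989478-125989537, was well above background on all 8 MGT arrays, between -3.33 and -1.31, and on none of the 8 LacZ arrays, between -7.36 and -5.79. Across the 34 arrays the 2 probes correlated at 0.0417, and the cause was not tested.

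**Figure D3:**
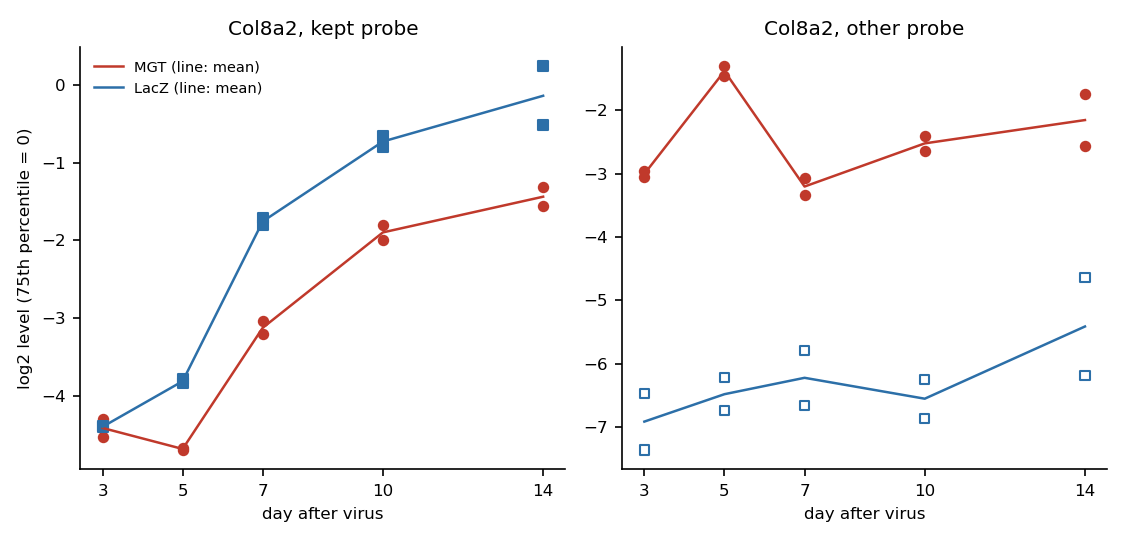
Log2 level of the 2 Col8a2 probes by day after virus, MGT as circles and LacZ as squares, 1 point per array with lines through the means and open symbols where the array was not well above background. The probe that stands for the gene is higher on day 10 than on day 3 in both series and lower in MGT than in LacZ from day 5, whereas the other is between -3.33 and -1.31 in MGT on days 3 to 10 and not detected in LacZ.

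Of the 9 FACIT chains, 3 rose and 3 fell over days 3 to 10. Col22a1, a chain of tissue junctions such as that of muscle and tendon, climbed to day 10 under MGT. Its level was 0.20 and 0.26 on day 3, 0.88 and 0.77 on day 5, 2.83 and 2.65 on day 7, 3.12 and 3.09 on day 10 and 2.63 and 2.38 on day 14 in MGT, against -3.75 and -3.56, -4.79 and -4.61, -5.23 and -4.96, -5.53 and -5.15 and -5.24 and -5.66 in LacZ. MGT arrays lay above all LacZ arrays, and the 2 series moved apart. The log2 change was 3.88 ± 0.41, adjusted p = 1.7e-06 on day 3 and 8.45 ± 0.41, adjusted p = 1.1e-11 on day 10, at least 202-fold, and the difference between those 2 effects was itself called (4.57 ± 0.58, adjusted p = 9.4e-05). That difference was called for 4 of 40 chains, 2 each way, where 1.99% of genes were called (1.41% higher and 0.582% lower).

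Col12a1, which coats type I fibrils, had its effect early. Its level in MGT was 3.66 and 3.80 on day 3 and 3.81 and 3.94 on day 10, against 1.57 and 1.62 and 2.85 and 2.95 in LacZ, without overlap on either day. The log2 change was 2.66 ± 0.19, adjusted p = 3.2e-09 on day 5, 1.28 ± 0.19, adjusted p = 4.7e-05 on day 7 and 0.26, not called, on day 14. LacZ itself rose meanwhile, and the effect was smaller on day 10 than on day 3 (-1.16 ± 0.26, adjusted p = 0.019). That last call was lost in 5 of 8 fits that left out 1 array: without MGT D3 replicate 2 (adjusted p = 0.1), MGT D10 replicate 1 (adjusted p = 0.094), LacZ D3 replicate 1 (adjusted p = 0.083), LacZ D3 replicate 2 (adjusted p = 0.066) or LacZ D10 replicate 2 (adjusted p = 0.071).

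Col19a1, a FACIT chain of muscle development and synapses in mice, was detected on both MGT arrays on days 3, 5 and 7 and on no LacZ array of any day. It had -4.25 and -5.14 in MGT and -7.64 and -8.23 in LacZ on day 7, a change of at least 1.99-fold (3.24 ± 0.37, adjusted p = 2.1e-06). With normexp background correction and quantile normalization that change was 0.86, under 2-fold. The FACIT chains that fell over days 3 to 10 were Col14a1 (-1.43 ± 0.46, adjusted p = 0.02), which regulates fibril width, Col16a1 (-1.08 ± 0.23, adjusted p = 0.00094) and Col9a1 (-2.29 ± 0.57, adjusted p = 0.0036), a cartilage chain. For Col14a1 the 8 MGT arrays lay between 4.13 and 5.00 and the 8 LacZ arrays between 5.57 and 6.25. Groups did not overlap for Col14a1, though no single day was called. For Col16a1, 1 LacZ array of day 3 was missing and its mean rests on the other array, and with the mean over its probes the change was -0.91, under 2-fold. For Col9a1 only 2 of 8 MGT arrays were well above background, a second probe differed by -0.01, and the call was lost with normexp and quantile normalization (-0.78, adjusted p = 0.17) and with the authors' log2 values (-1.27, adjusted p = 0.072).

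The basement membrane chains split by pair. Col4a3 and Col4a4, which join Col4a5 in the mature network of the kidney filter, rose together, with higher MGT levels on each later day. On day 3 limma called 0 of 6 type IV chains (2 higher at an unadjusted p under 0.05), against 5.05% of all genes. The difference between the day 10 and day 3 effects was also called for 0 of 6, against 1.99% of all genes. There, 1 was higher at an unadjusted p under 0.05. Col4a3 stood at -2.93 and -2.88, -1.16 and -1.29, 0.39 and 0.41, 0.99 and 1.11 and 1.58 and 1.52 in MGT on days 3, 5, 7, 10 and 14, and at -6.16 and -5.62, -5.80 and -4.64, -3.85 and -3.62, -4.03 and -3.79 and -3.59 and -3.59 in LacZ. Each MGT array was above each LacZ array of its day. Its change was 4.96 ± 1.09, adjusted p = 0.003 on day 10 and 4.02 ± 0.54, adjusted p = 6.9e-06 over days 3 to 10. Its single calls on days 5 and 7 did not hold without 1 array. On day 5 the adjusted p was 0.092 without MGT replicate 1, 0.077 without MGT replicate 2 and 0.15 without LacZ replicate 1. On day 7 it was 0.074 and 0.069 without MGT replicates 1 and 2, and 0.077 and 0.062 without LacZ replicates 1 and 2.

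Col4a4 stood at -1.29 and -1.22, 0.14 and 0.03, 1.44 and 1.37, 2.08 and 2.07 and 2.37 and 2.33 in MGT, against -2.66 and -2.65, -2.29 and -2.16, -1.56 and -1.49, -1.59 and -1.61 and -1.67 and -1.53 in LacZ. The arrays did not overlap on any day, and the change was 2.31 ± 0.48, adjusted p = 0.002 on day 5 and 3.95 ± 0.48, adjusted p = 5e-06 on day 14. A second Col4a4 probe, well above background on 8 of 8 MGT and 4 of 8 LacZ arrays, differed by 3.01 over days 3 to 10, beside 2.58 for the probe that stands for the gene. The remaining probe was well above background on 6 of 8 MGT and 0 of 8 LacZ arrays. Col4a1 and Col4a2, the chains of nearly every basement membrane, whose overlapping promoter windows are printed above, were not called. Col4a1 had 6.44 and 6.49 in MGT and 6.76 and 6.51 in LacZ on day 10, and changed by -0.11 ± 0.09, adjusted p = 0.37 over days 3 to 10. Col4a2 changed by -0.11 ± 0.08, adjusted p = 0.35. Col4a5 and Col4a6 changed by 0.24 ± 0.09, adjusted p = 0.043 and 0.48 ± 0.13, adjusted p = 0.0087, each under 2-fold.

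**Figure D4:**
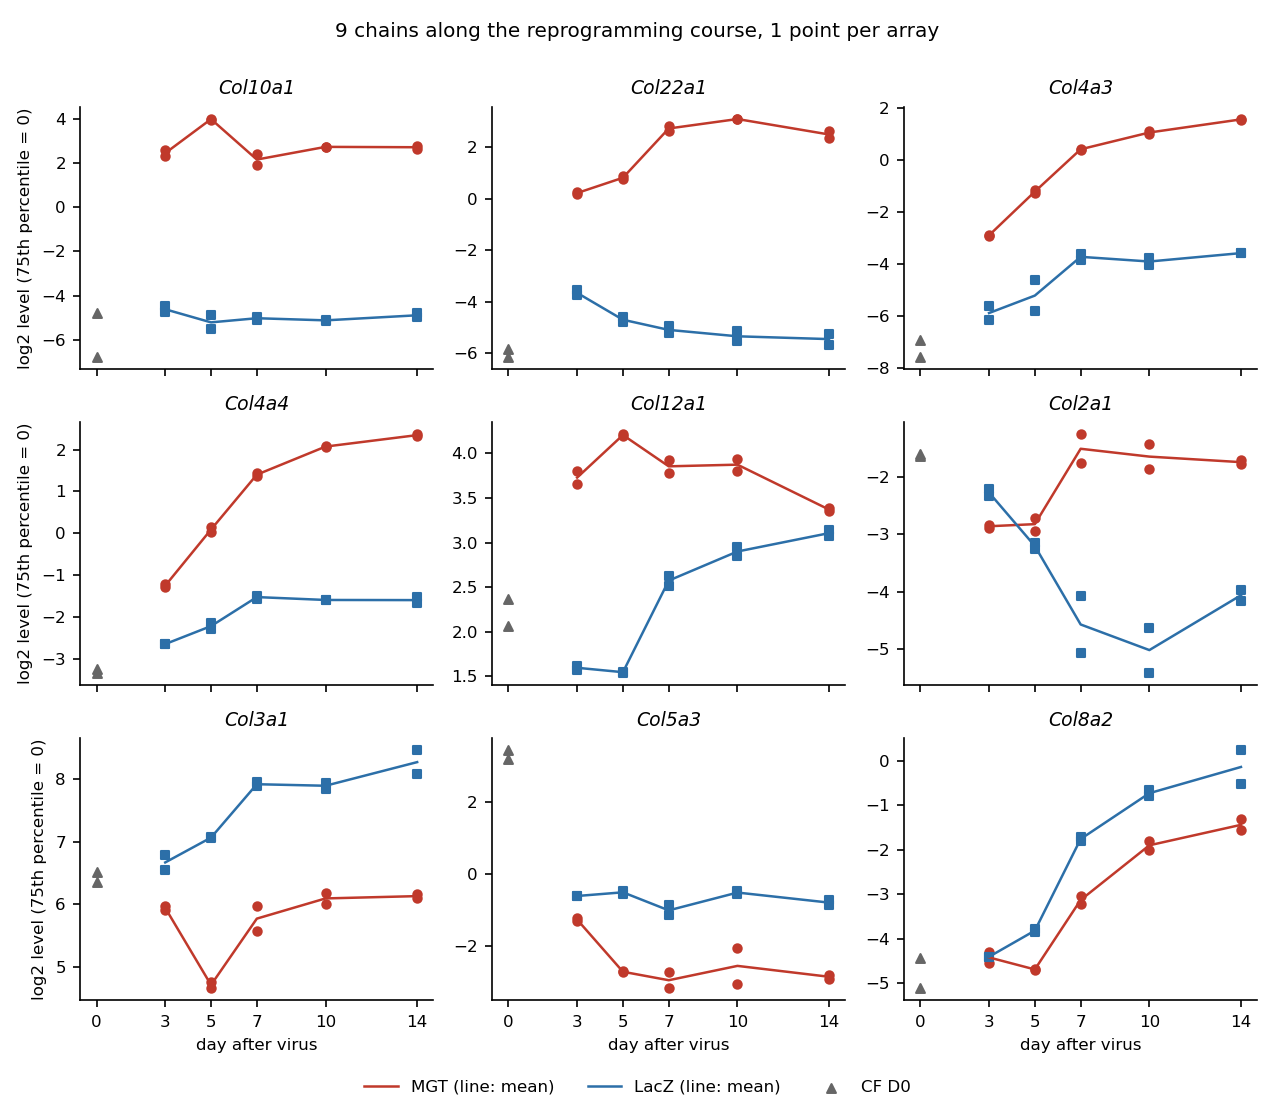
Log2 level of 9 chains by day after virus, MGT as red circles, LacZ as blue squares and CF D0 as grey triangles at day 0, 1 point per array with lines through the means. Col10a1 is high in MGT from day 3, Col22a1, Col4a3 and Col4a4 climb to day 10, and Col3a1 and Col5a3 lie below LacZ on every day.

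Of the 11 fibrillar chains, 2 rose and 4 fell over days 3 to 10. Col1a1 and Col1a2, the chains of type I collagen, were not called: Col1a1 changed by -0.02 ± 0.16, adjusted p = 0.95 and Col1a2 by -0.24 ± 0.36, adjusted p = 0.65. On day 14 Col1a1 stood at 6.53 and 6.24 in MGT and 7.70 and 8.99 in LacZ, a called change of -1.96 ± 0.32, adjusted p = 0.00015. The 2 LacZ arrays of that day stand apart from each other, and the second had the lowest 75th percentile of intensity of all 34 (729). The day 14 change was -2.60 (adjusted p = 4.7e-06) without the first and -1.32 (adjusted p = 0.0055) without the second. Col3a1, which pairs with type I in heart fibrils, was lower throughout, at 5.91 and 5.98, 4.65 and 4.76, 5.57 and 5.97 and 6.0 and 6.18 in MGT on days 3 to 10, against 6.56 and 6.78, 7.06 and 7.08, 7.89 and 7.95 and 7.95 and 7.85 in LacZ. No MGT array reached a LacZ array of the course. It fell by 1.76 ± 0.43 over the 4 days (adjusted p = 0.0028), with no single day called. The SE of Col3a1 takes in the iPSC2-CM D29 pair, whose arrays stand far apart.

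Col5a3, a minor chain of type V collagen, stood at -3.04 and -2.05 in MGT and -0.48 and -0.54 in LacZ on day 10, without overlap, and was called on days 5, 7, 10 and 14 (-1.71 ± 0.15, adjusted p = 2e-08 over days 3 to 10). Col11a1 (-1.11 ± 0.25, adjusted p = 0.0014) and Col27a1 (-1.08 ± 0.29, adjusted p = 0.0057) also fell, and the Col27a1 change was under 2-fold with the authors' log2 values (-0.98) and with normexp and quantile normalization (-0.75). Col5a1 (-0.52 ± 0.06, adjusted p = 2e-06) had a small adjusted p with a change under 2-fold. Col2a1, the chain of cartilage collagen, separated late: it stood at -2.84 and -2.89 in MGT and -2.21 and -2.34 in LacZ on day 3, and at -1.43 and -1.86 in MGT and -4.63 and -5.41 in LacZ on day 10. The MGT effect was larger on day 10 than on day 3 (3.96 ± 0.79, adjusted p = 0.0078), a difference that lost its call with normexp and quantile normalization (2.56, adjusted p = 0.081). Col24a1, a fibrillar chain of bone and cornea, was highest on day 3, at -1.82 and -1.84 in MGT and -4.99 and -4.80 in LacZ (3.06 ± 0.70, adjusted p = 0.0066). That call was lost without MGT D3 replicate 1 (adjusted p = 0.053), MGT D3 replicate 2 (adjusted p = 0.051) or LacZ D3 replicate 1 (adjusted p = 0.062), while the change over days 3 to 10 held under all alternatives (1.97 ± 0.35, adjusted p = 0.00015).

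The beaded filament chains of type VI, a pericellular network of fibroblasts and muscle, moved both ways. Col6a2 stood at 1.63 and 1.71, 1.21 and 1.23, 1.45 and 1.35 and 1.3 and 1.28 in MGT on days 3 to 10, against 1.52 and 1.53, 2.67 and 2.70, 2.89 and 2.87 and 2.63 and 2.47 in LacZ. The series lay close on day 3, and LacZ was higher from day 5. The change was -1.48 ± 0.16, adjusted p = 1.4e-06 on day 7, and the effect on day 10 was below that on day 3 (-1.40 ± 0.23, adjusted p = 0.0013). Col6a1, its neighbour in the genome, fell by 1.10 ± 0.20 over days 3 to 10 (adjusted p = 0.00025). Its calls on single days were lost when 1 array was left out, with adjusted p up to 0.14. Col6a6 ran the other way and was highest on day 3, at -2.34 and -2.43 in MGT, against -7.48 and -6.62 in LacZ, where it was not detected, at least 9.97-fold higher (4.67 ± 0.90, adjusted p = 0.0016).

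The remaining classes moved late or little. Col13a1, a membrane chain of muscle-nerve junctions and the 1 chain with a MEF2 box in its window, was not detected in MGT on days 3 and 5. It stood at -3.88 and -4.12 in MGT on day 10 and was undetected in LacZ (-6.06 and -6.99), at least 1.83-fold higher (2.53 ± 0.51, adjusted p = 0.0014), and with normexp and quantile normalization the change was 0.96, under 2-fold. Col15a1, a multiplexin of muscle and vessel basement membranes, stood at -2.20 and -2.36 in MGT and -4.34 and -4.49 in LacZ on day 14 (2.14 ± 0.51, adjusted p = 0.0046), while Col18a1, the parent of endostatin, changed by 0.36 ± 0.12, adjusted p = 0.029 over days 3 to 10. Col28a1, a chain related to type VI and known from nerve, was listed lower over days 3 to 10 (-1.53 ± 0.49, adjusted p = 0.019) but was detected on 0 of 8 MGT and 4 of 8 LacZ arrays, and the change was -0.42 with normexp and quantile normalization and -0.84 with the authors' log2 values, both under 2-fold.

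Marker lists moved in the same comparison. Of 6 cardiomyocyte markers, Actn2 and Ryr2 were not detected in LacZ on days 5 to 14. Summed levels of the 6 cardiomyocyte markers (log2 of the summed intensities) lay between 7.82 and 8.97 on the MGT arrays of days 3 to 10 and between 4.55 and 5.97 on the LacZ arrays, with all 6 detected on both MGT arrays of each day. Those of 6 fibroblast markers, none a collagen, lay between 8.09 and 8.84 in MGT and between 9.01 and 9.47 in LacZ. Over days 3 to 10, 6 of 6 cardiomyocyte markers rose, and of the 6 fibroblast markers 1 rose and 3 fell (median log2 change -1.15). Of 6 endothelial markers 4 fell and 0 rose (median -1.87), with summed levels between 3.15 and 3.53 in MGT and between 3.31 and 3.82 in LacZ. Of 6 smooth muscle and pericyte markers 1 rose and 1 fell, and of 4 epicardial markers 1 rose and 1 fell. Of 5 cartilage markers 2 rose and 2 fell (median -0.20). Among them Acan, which codes for the cartilage proteoglycan aggrecan, was higher in MGT (on day 10 1.17 and 1.03 in MGT and -3.26 and -3.25 in LacZ). Sox9, the master regulator of cartilage, was lower (-0.79 and -0.60 in MGT and 0.84 and 0.75 in LacZ), and Cnmd was not detected on the MGT arrays. The part of these cells in the collagen changes was not tested.

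Of 52 other genes of the collagen pathway, 11 were called over days 3 to 10 (21.2%, where 9.92% of all genes were called). Of these, 2 of 14 hydroxylation and glycosylation genes rose. Of 8 folding and export genes 0 were called by limma (1 higher and 2 lower at an unadjusted p under 0.05), and Serpinh1, the collagen chaperone, stood at 7.02 and 7.10 in MGT and 7.43 and 7.16 in LacZ on day 10. Of 8 propeptide proteases and enhancers 2 fell, of 5 cross-linking enzymes 2 fell, and of 8 genes of degradation and uptake 2 fell.

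Of 9 collagen receptors 2 rose and 1 fell. Itga10 and Itga11 code for integrin alpha chains that bind collagen. Itga10 stood at 2.32 and 2.27 in MGT and -0.20 and -0.29 in LacZ on day 5 and rose by 2.03 ± 0.09, adjusted p = 9.5e-13 over days 3 to 10, with no overlap of arrays. Itga11, an integrin chain of activated fibroblasts, changed by -1.78 ± 0.07, adjusted p = 2.3e-13 over days 3 to 10. Gp6, the platelet collagen receptor, stood at -1.58 and -1.54 in MGT and -5.44 and -5.45 in LacZ on day 10, where it was not detected, at least 8.85-fold higher (3.89 ± 0.51, adjusted p = 1.4e-05). Fap, a protease of activated fibroblasts, stood at -0.90 and -0.90 in MGT and 1.45 and 1.61 in LacZ on day 7 (-2.43 ± 0.50, adjusted p = 0.0016). Tll1, which cleaves the end piece of fibrillar collagens, was lowest of all pathway genes over days 3 to 10 (-1.81 ± 0.40, adjusted p = 0.0012).

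Time in culture without the factors was also read. From CF D0 to LacZ D14 both the virus and the time differ, and the 2 cannot be told apart. LacZ cells on day 14 were set against CF D0, arrays of 1 slide, and 10 of 40 chains were higher and 7 lower, 42.5%, where 27.8% of all genes were called (15% higher and 12.8% lower). Col11a1, which starts fibrils, rose the most: it stood at 4.29 and 4.33 in LacZ D14 and -0.99 and -1.22 in CF D0 (5.42 ± 0.49, adjusted p = 3.2e-08). Col4a5 stood at 4.72 and 4.72 in LacZ D14 and 0.30 and 0.28 in CF D0 (4.43 ± 0.18, adjusted p = 5.5e-13), and its neighbour Col4a6 at 2.59 and 2.67 in LacZ D14 and -1.84 and -1.93 in CF D0 (4.51 ± 0.27, adjusted p = 8.6e-11). Neither pair overlaps, whereas Col4a1 and Col4a2 changed by -0.09 and 0.28 and were not called. Col4a3 and Col4a4 were called higher too, so 4 of the 6 type IV chains rose without the factors. The Col4a3 change was 3.36 without CF D0 replicate 2, where its call was lost. The Col4a4 call was lost with normexp and quantile normalization (1.10, adjusted p = 0.057). Col8a2 stood at 0.24 and -0.52 in LacZ D14 and -4.42 and -5.11 in CF D0 (4.63 ± 0.65, adjusted p = 8e-06). The other Col8a2 probe was well above background on no array of either group, so this rise rests on 1 probe.

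Downward, Col5a3 stood at -0.71 and -0.87 in LacZ D14 and 3.44 and 3.20 in CF D0 (-4.11 ± 0.30, adjusted p = 1.6e-09), Col15a1 changed by -2.81 ± 0.51, adjusted p = 0.00015 and Col9a2, a cartilage chain, by -1.97 ± 0.25, adjusted p = 2.4e-06. Col15a1 changed by -2.10 (adjusted p = 0.0075) without CF D0 replicate 1 and by -3.53 (adjusted p = 8.9e-05) without replicate 2. Col9a3 was also called lower, from 1 CF D0 array: it stood at -6.33 and -0.82 there, and without CF D0 replicate 2 the change was -0.28 (adjusted p = 0.75). Of the type I chains, Col1a1 was called (1.10 ± 0.32, adjusted p = 0.0077) and Col1a2 was not (1.36 ± 0.73, adjusted p = 0.13). The Col1a1 call was lost without LacZ D14 replicate 2 (0.46, adjusted p = 0.26), it was 1.74 (adjusted p = 0.00013) without replicate 1, and it was under 2-fold with quantile normalization (0.77), with normexp (0.59) and with the authors' log2 values (0.60). Without CF D0 replicate 2, 11 chains were called in place of 17. Within the LacZ course, day 10 against day 3, Col8a2 moved most, standing at -0.79 and -0.66 on day 10 and -4.40 and -4.41 on day 3 (3.68 ± 0.65, adjusted p = 0.00056). Its other probe averaged -6.55 on day 10 and -6.92 on day 3, not detected on either, so this rise rests on 1 probe. In that comparison 4 chains rose and 4 fell, where 7.80% of genes were called (3.86% higher and 3.94% lower). Without LacZ D10 replicate 1, 5 were called.

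Among 52 other pathway genes, 22 passed the test between LacZ D14 and CF D0 (42.3%, where 27.8% of all genes were called). Of 5 cross-linking enzymes 4 rose, Loxl2 by 3.12 ± 0.18, adjusted p = 7e-11, and Lox stood at 4.65 and 4.66 in LacZ D14 and 3.1 and 3.03 in CF D0. Itga11 rose by 4.19 ± 0.15, adjusted p = 9e-14. The collagenase Mmp13 stood at -4.32 and -4.14 in LacZ D14 and 1.78 and 1.60 in CF D0, a change of -5.92 ± 0.34, adjusted p = 5.1e-11. Summed macrophage markers were 7.55 and 8.25 in LacZ D14 and 5.43 and 5.36 in CF D0, and 5 of 6 rose (median log2 change 2.24). All 4 epicardial markers rose (1.64), and their sums were 5.05 and 5.07 in LacZ D14 and 3.44 and 3.35 in CF D0. Of 6 smooth muscle and pericyte markers 4 rose and 1 fell (1.52), of 6 endothelial markers 1 rose and 4 fell (-2.24), and of 6 cardiomyocyte markers 1 rose and 4 fell (-2.47). The part of these cells in the collagen changes between CF D0 and LacZ D14 was not tested.

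Fresh cardiomyocytes and fresh fibroblasts of the neonatal heart differed at 17 of 40 chains, 5 higher and 12 lower in neoCM (42.5%, where 31.6% of genes were called, 15.4% higher and 16.2% lower). The type I and III chains Col1a1, Col1a2 and Col3a1 were not among them. Col5a1, a type V chain, was called lower in neoCM, a change of -0.90, under 2-fold, without neoCF replicate 2. Col1a1 stood at 6.81 and 7.28 in neoCM and 7.24 and 7.24 in neoCF, Col1a2 at 8.31 and 8.22 in neoCM and 8.23 and 8.23 in neoCF, and Col3a1 at 7.69 and 7.70 in neoCM and 7.65 and 7.61 in neoCF. Their changes were -0.20 ± 0.32, adjusted p = 0.63, 0.03 ± 0.73, adjusted p = 0.97 and 0.06 ± 0.85, adjusted p = 0.96. These SEs take in the iPSC2-CM D29 pair, which stands far apart for Col1a2 and Col3a1. Chains of both low and high level separated the preparations. All 3 type VI chains were called lower in neoCM. Col6a1 had a mean of 6.96 in neoCF and 5.90 in neoCM, and Col6a2 of 5.01 in neoCF and 3.79 in neoCM. The Col6a1 call was lost whichever of the 4 arrays was left out, with changes from -1.21 to -0.91, the last under 2-fold without neoCM replicate 2. The Col6a6 call was lost without neoCF replicate 1 (-2.62) and without neoCM replicate 2 (-2.81). Col15a1 stood at -2.32 and -2.06 in neoCM and 0.46 and 0.96 in neoCF (-2.90 ± 0.51, adjusted p = 9.7e-05), Col18a1 at 3.12 and 3.19 in neoCM and 5.52 and 5.81 in neoCF (-2.51 ± 0.24, adjusted p = 7.5e-08), and Col5a3 at 0.58 and 0.46 in neoCM and 3.12 and 3.40 in neoCF (-2.74 ± 0.30, adjusted p = 3.7e-07). Upward were Col4a5 (1.43 ± 0.18, adjusted p = 2.2e-06), Col4a6 (1.55 ± 0.27, adjusted p = 8.3e-05), Col11a2 (1.86 ± 0.38, adjusted p = 0.00041) and Col22a1, at -2.61 and -2.88 in neoCM and -4.85 and -4.66 in neoCF (2.01 ± 0.41, adjusted p = 0.00039). Col10a1 was called higher as well but was not detected on any of the 4 arrays.

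Markers of both cell types were read in both preparations. Fibroblast markers summed to 8.54 and 8.29 in neoCM and 8.96 and 9.02 in neoCF, and cardiomyocyte markers to 10.5 and 10.6 in neoCM and 6.70 and 6.17 in neoCF. Endothelial markers summed to 3.53 and 3.85 in neoCM and 5.78 and 5.89 in neoCF, with 5 of 6 lower in neoCM (median log2 change -3.56). Macrophage markers summed to 5.48 and 5.59 in neoCM and 6.82 and 6.47 in neoCF, with 5 of 6 lower (-4.58). Of 4 epicardial markers 3 were lower (-1.21), and of 6 smooth muscle and pericyte markers 4 were higher (1.96). The part of these cells in the collagen differences was not tested.

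After 4 weeks, iCM had Col10a1, Col22a1, Col4a3 and Col4a4 above the fresh heart cells and LacZ D14, and Col2a1, Col9a1, Col9a2, Col9a3 and Col11a2 below the fresh cells. Against neoCF the Col9a3 call was lost with normexp and quantile normalization (-0.79, adjusted p = 0.19) and with the authors' log2 values (-1.43, adjusted p = 0.077). The Col11a2 change against neoCF was -0.89, under 2-fold, with normexp and quantile normalization. Against neoCF, 11 chains were higher and 20 lower in iCM (77.5% of members, 37.3% of genes called, 17.8% higher and 19.5% lower). Against LacZ D14, 9 were higher and 6 lower (37.5%, 28.1% of genes, 10.3% higher and 17.8% lower), a comparison in which the time after virus differs. Against neoCM, 11 were higher and 12 lower (57.5%, 39.0% of genes, 18.9% higher and 20.1% lower). Against LacZ D14 the split was 10 higher and 4 lower with quantile normalization. Col22a1 stood at 3.34 and 3.24 in iCM, -5.24 and -5.66 in LacZ D14, -2.61 and -2.88 in neoCM and -4.85 and -4.66 in neoCF. It was at least 218-fold higher than in LacZ D14 (8.74 ± 0.41, adjusted p = 5.3e-12) and differed from neoCM by 6.03 ± 0.41, adjusted p = 2.8e-10. Col4a3 stood at 1.24 and 1.88 in iCM and -2.95 and -2.89 in neoCM (4.48 ± 1.09, adjusted p = 0.0016), and Col4a4 at 2.11 and 2.42 in iCM and 0.48 and 0.38 in neoCM (1.83 ± 0.48, adjusted p = 0.0028). Col10a1 stood at -1.96 and -2.15 in iCM and was undetected in neoCM (-5.43 and -5.26), at least 9.51-fold higher (3.29 ± 0.86, adjusted p = 0.0028). Its iCM level lies below every MGT array of days 3 to 14, a difference of groups that was not tested.

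Other chains set iCM apart from the fresh cells. Col8a1 stood at 4.28 and 4.08 in iCM, -3.1 and -2.92 in neoCM and -1.01 and -0.70 in neoCF (7.19 ± 0.61, adjusted p = 6.9e-09 against neoCM). LacZ D14 cells also had it at 4.68 and 4.70, and iCM differed from them by -0.51, not called. Col28a1 stood at -0.97 and -0.86 in iCM, and on no array of another group was it above -3.59. Against neoCM it was at least 28.6-fold higher (6.5 ± 0.97, adjusted p = 1.1e-05), and against neoCF it changed by 4.94 ± 0.97, adjusted p = 0.00025. The 5 largest falls against neoCM were those of Col9a1 (-6.06 ± 1.15, adjusted p = 0.00015), Col9a3, undetected in iCM and at least 15.5-fold lower (-5.21 ± 1.01, adjusted p = 0.00019), Col9a2 (-4.29 ± 0.25, adjusted p = 3.7e-11), Col2a1 (-4.07 ± 0.56, adjusted p = 4.1e-06) and Col11a2 (-3.59 ± 0.38, adjusted p = 1.4e-07). These are chains known from cartilage, but Col10a1 and Col11a1, also known from cartilage, were higher in iCM. Col11a1 was higher by 2.11 ± 0.49, adjusted p = 0.0011 against neoCM and 1.31 ± 0.49, adjusted p = 0.029 against neoCF. The Col11a1 call against neoCF was lost with quantile normalization (1.15, adjusted p = 0.086) and with the authors' log2 values (1.17, adjusted p = 0.07). It was also lost with normexp and quantile normalization (1.14, adjusted p = 0.051), and the change was 0.95 without iCM replicate 1. For Col9a1 the 2 probes correlated at only 0.27 across the 34 arrays. Against neoCF its change in iCM was -3.94 on the probe that stands for the gene and -1.16 on the other. The largest falls against neoCF were those of Col15a1, at -4.94 and -4.29 in iCM and 0.46 and 0.96 in neoCF (-5.33 ± 0.51, adjusted p = 4.7e-08), Col9a2 (-5.10 ± 0.25, adjusted p = 4.7e-12) and Col24a1, at -4.22 and -3.83 in iCM and -0.11 and 0.13 in neoCF (-4.03 ± 0.70, adjusted p = 6.3e-05).

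Among the main fibrillar chains, Col1a1 stood at 6.21 and 5.95 in iCM, against 7.70 and 8.99 in LacZ D14, 6.81 and 7.28 in neoCM and 7.24 and 7.24 in neoCF. It was lower than in neoCF (-1.16 ± 0.32, adjusted p = 0.0041) and than in LacZ D14 (-2.27 ± 0.32, adjusted p = 1.1e-05). The change against LacZ D14 was -2.91 (adjusted p = 4.6e-07) without LacZ D14 replicate 1 and -1.62 (adjusted p = 0.00041) without replicate 2. Against neoCM it differed by -0.96 ± 0.32, adjusted p = 0.014, under 2-fold. Col3a1 stood at 7.15 and 6.87 in iCM and 7.65 and 7.61 in neoCF, not called (-0.62 ± 0.85, adjusted p = 0.55). Col5a2, a type V chain, stood at 2.22 and 2.02 in iCM and 5.38 and 5.63 in LacZ D14 (-3.39 ± 0.60, adjusted p = 0.00013). Summed fibroblast markers in iCM were 8.99 and 8.73, beside 9.36 and 9.55 in LacZ D14, and cardiomyocyte markers were 8.69 and 8.40 in iCM, beside 3.93 and 4.11 in LacZ D14. Of 6 macrophage markers 3 were lower in iCM than in LacZ D14, and of 4 epicardial markers 3 were higher, with sums of 7.77 and 7.37 in iCM and 5.05 and 5.07 in LacZ D14.

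Against neoCM more of the marker lists differed. Of 6 macrophage markers 5 were higher and 1 lower in iCM (median log2 change 5.43), with sums of 6.38 and 6.35 in iCM and 5.48 and 5.59 in neoCM. All 4 epicardial markers were higher (2.73), as were 4 of 6 fibroblast markers (2.06). Lower in iCM were 5 of 6 smooth muscle and pericyte markers (-3.82), 5 of 6 cardiomyocyte markers (-2.23), 4 of 6 endothelial markers (-2.49) and 3 of 3 Schwann cell markers (-1.93). Of 5 cartilage markers, 2 were lower and 0 higher in iCM than in neoCM (-0.86). Their sums were 0.17 and 0.08 in iCM and 3.93 and 4.04 in neoCM, where 2 were detected on both arrays. Against neoCF, 5 of 6 endothelial markers were lower in iCM (-5.55). The part of these cells in the iCM values was not tested.

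Against neoCM, 17 of 52 other pathway genes were higher in iCM and 3 lower (38.5%, close to the 39.0% of all genes called). Mmp8, the neutrophil collagenase, stood at 0.83 and 0.81 in iCM and -5.15 and -4.68 in neoCM (5.73 ± 0.52, adjusted p = 1.7e-08), and P4ha1, a prolyl hydroxylase, at 2.85 and 2.80 in iCM and -0.41 and -0.41 in neoCM (3.23 ± 0.35, adjusted p = 1.8e-07). Of 5 cross-linking enzymes 3 were higher, Lox standing at 3.93 and 4.24 in iCM and 1.23 and 1.47 in neoCM (2.74 ± 0.36, adjusted p = 2.2e-06). Mmp9, a gelatinase, was the most reduced (-2.60 ± 0.59, adjusted p = 0.00092).

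**Figure D5:**
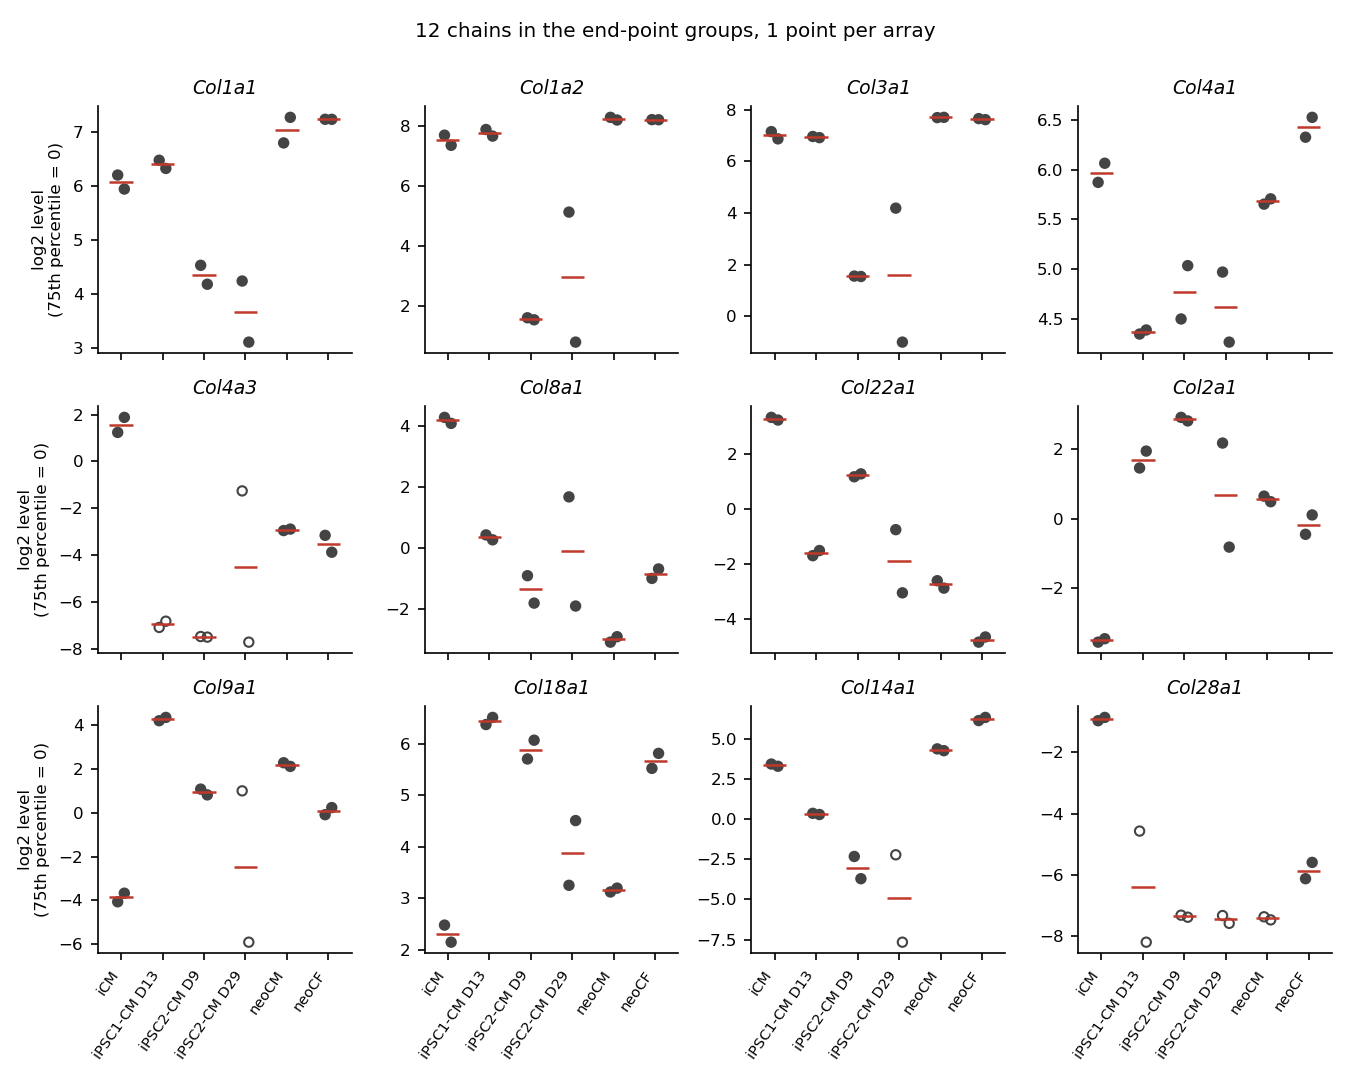
Log2 level of 12 chains in the end-point groups, 1 point per array with red lines at the means and open points for groups in which not both arrays were well above background. iCM lies highest of these groups for Col4a3, Col8a1 and Col22a1, iPSC2-CM D9 lies near 1.5 for Col1a2 and Col3a1, and the 2 iPSC2-CM D29 arrays are far apart for most chains.

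Cardiomyocytes from pluripotent cells differed from neoCM, and the 2 lines differed between themselves. Against neoCM, 7 chains were higher and 11 lower in iPSC1-CM D13 (45.0%, where 36.8% of genes were called, 18.6% higher and 18.2% lower), and 6 were higher and 20 lower in iPSC2-CM D9 (65.0%, 41.3% of genes, 20.7% higher and 20.5% lower). Both groups share the neoCM arrays, so their values stand side by side. Col18a1 stood at 6.37 and 6.51 in iPSC1-CM D13, 5.70 and 6.07 in iPSC2-CM D9 and 3.12 and 3.19 in neoCM (3.28 ± 0.24, adjusted p = 1.5e-09 and 2.73 ± 0.24, adjusted p = 1.4e-08). Col4a3 and Col4a4 were lower in both, Col4a4 by -3.31 and -3.38, and Col4a3 was not detected in either. Col14a1 stood at 0.38 and 0.31 in iPSC1-CM D13, -2.31 and -3.70 in iPSC2-CM D9 and 4.41 and 4.29 in neoCM (-4.01 ± 0.92, adjusted p = 0.001 and -7.36 ± 0.92, adjusted p = 1.2e-06). The second was -8.05 (adjusted p = 8.8e-06) without iPSC2-CM D9 replicate 1 and -6.66 (adjusted p = 7.3e-05) without replicate 2. Against neoCM all 4 epicardial markers were lower in iPSC1-CM D13 (median log2 change -3.52) and in iPSC2-CM D9 (-4.37). Of 6 fibroblast markers 2 were higher and 2 lower in iPSC1-CM D13 and 5 lower in iPSC2-CM D9, and of 6 smooth muscle and pericyte markers 3 were lower in iPSC1-CM D13 and 5 in iPSC2-CM D9. Their part was not tested.

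The fibril chains separated the lines, which were also taken on different days. Set directly against iPSC2-CM D9, 19 chains were higher and 2 lower in iPSC1-CM D13 (52.5%, where 21.3% of genes were called, 12.2% higher and 9.1% lower), 8 of the 11 fibrillar chains among the higher. Col1a2 stood at 7.90 and 7.68 in iPSC1-CM D13 and 1.59 and 1.52 in iPSC2-CM D9 (6.23 ± 0.73, adjusted p = 1.2e-06). Col3a1 stood at 6.96 and 6.92 in iPSC1-CM D13 and 1.55 and 1.54 in iPSC2-CM D9 (5.40 ± 0.85, adjusted p = 4.7e-05), and Col5a2 at 3.93 and 3.89 in iPSC1-CM D13 and -0.66 and -1.12 in iPSC2-CM D9 (4.80 ± 0.60, adjusted p = 3e-06). Col1a1 stood at 6.48 and 6.33 in iPSC1-CM D13 and 4.53 and 4.18 in iPSC2-CM D9 (2.05 ± 0.32, adjusted p = 3.8e-05). Of the 6 type IV chains 0 were called by limma (1 higher and 2 lower at an unadjusted p under 0.05). Col22a1 was lower in iPSC1-CM D13, at -1.70 and -1.51, than in iPSC2-CM D9, at 1.17 and 1.28 (-2.83 ± 0.41, adjusted p = 1.6e-05). Summed fibroblast markers were 7.93 and 7.88 in iPSC1-CM D13 and 2.52 and 2.50 in iPSC2-CM D9, and cardiomyocyte markers were 8.69 and 8.56 in iPSC1-CM D13 and 9.57 and 9.87 in iPSC2-CM D9. Of 6 smooth muscle and pericyte markers 4 were higher and 1 lower in iPSC1-CM D13, and of 6 endothelial markers 3 were lower. Their part in the collagen difference was not tested. Lox stood at 2.16 and 2.04 in iPSC1-CM D13 and -5.62 and -5.12 in iPSC2-CM D9 (7.47 ± 0.36, adjusted p = 5.5e-12), and all 5 cross-linking enzymes were higher in the first.

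For longer culture of the second line, the 2 iPSC2-CM D29 arrays stand far apart. Col1a2 stood at 5.13 and 0.78 on them, Col3a1 at 4.18 and -1.01 and Col9a1 at 1.00 and -5.90. Such gaps widen the SE of these chains in every comparison, as the spread is pooled over all groups. On the same arrays summed fibroblast markers were 8.46 and 4.44, and markers of extraembryonic and gut endoderm 5.84 and -2.00. Against day 9, 4 chains were higher and 8 lower (where 24.2% of genes were called, 14.8% higher and 9.39% lower), but 22 were called without D29 replicate 1 and 20 without D29 replicate 2, of which 10 and 9 were among the 12. Col5a1 fell on both arrays, standing at 2.25 and 1.75 on day 29 and 4.02 and 4.12 on day 9 (-2.07 ± 0.13, adjusted p = 2.7e-10). Col22a1 fell too, at -0.75 and -3.05 on day 29 and 1.17 and 1.28 on day 9 (-3.13 ± 0.41, adjusted p = 5e-06), with -4.28 (adjusted p = 2.6e-12) without D29 replicate 1 and -1.98 (adjusted p = 7.2e-08) without D29 replicate 2.

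Set directly against the mean of iPSC1-CM D13 and iPSC2-CM D9, 20 chains were higher and 8 lower in iCM (70.0%, where 46.1% of genes were called, 21.7% higher and 24.4% lower). All 5 called type IV chains were higher in iCM, Col4a3 at least 149-fold (8.78 ± 0.94, adjusted p = 9.8e-08), Col4a4 by 5.18 ± 0.42, adjusted p = 1.5e-09 and Col4a1 by 1.41 ± 0.16, adjusted p = 1.7e-07. Col5a3 stood at 0.74 and 1.15 in iCM, -3.83 and -3.84 in iPSC1-CM D13 and -6.04 and -6.63 in iPSC2-CM D9 (6.03 ± 0.26, adjusted p = 2e-13). The largest falls were those of Col9a1 (-6.47 ± 0.99, adjusted p = 9.9e-06), Col2a1, at -3.55 and -3.45 in iCM, 1.46 and 1.95 in iPSC1-CM D13 and 2.91 and 2.81 in iPSC2-CM D9 (-5.78 ± 0.49, adjusted p = 2.9e-09), Col9a2 (-4.77 ± 0.22, adjusted p = 3.9e-13) and Col18a1 (-3.85 ± 0.21, adjusted p = 6.4e-12). The Col9a1 value is that of 1 probe, and its 2 probes correlated at 0.27 across the 34 arrays. Of other chains known from cartilage, Col10a1 (4.12 ± 0.74, adjusted p = 6.7e-05, with 1 of 4 iPSC-derived arrays well above background) and Col11a1 (2.31 ± 0.43, adjusted p = 8.7e-05) were higher in iCM. Col1a2 (2.87 ± 0.63, adjusted p = 0.00047) and Col3a1 (2.77 ± 0.74, adjusted p = 0.0026) were called higher in iCM, where their arrays overlap those of iPSC1-CM D13 and lie above those of iPSC2-CM D9. With quantile normalization or the authors' log2 values the split was 23 higher and 5 lower. In the same comparison 6 of 6 fibroblast markers (median log2 change 5.11), 4 of 4 epicardial markers (7.34) and 5 of 6 macrophage markers (7.31) were higher in iCM, and 3 of 3 pluripotency markers were lower (-3.49). Epicardial sums were 7.77 and 7.37 in iCM, 0.51 and 0.48 in iPSC1-CM D13 and 0.54 and -0.33 in iPSC2-CM D9, and the part of these cells was not tested.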

How the data were processed

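RNA from 34 samples, 2 for each of 17 groups, was read on single-colour Agilent arrays. The authors deposited the scanner files, whose intensity values were made with Agilent Feature Extraction 10.7.3.1 on an array design for mm9, per the file headers, with background adjustment and no scaling between arrays. They also deposited a table of log2 values, whose median was between 7.49 and 7.52 on every array, and how it was scaled is not given in the sources used here. It served as an alternative. Flags for background, saturation and outliers are the scanner software's, per the file headers.

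Outlier spots were left out, spots of a probe were averaged, and log2 intensity minus the 75th percentile of the array was used. Probes entered the test where both arrays of some group read them well above background, and of these the one with the highest mean stood for its gene. Where a group was not above background, "at least" folds compare against the lowest signal well above background on its arrays. limma 3.58.1 (R 4.3.3) was fitted once over all arrays with 17 group means and 17 residual degrees of freedom, and p-values were adjusted over all 19408 genes. The fit was tested on simulated data. Figures were drawn with matplotlib 3.10.9.

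Values were named from among the 5 largest called rises and falls of a comparison, a fixed set of main heart chains, and the largest called changes of each pathway list, and not all of these are printed. Col8a2's second probe, Col9a3, Col11a2, Col13a1, Col16a1, Col24a1, Col27a1, Serpinh1, Lox, P4ha1 and Mmp8 were partly named after their values were seen. The members, lists and tests were chosen with earlier results of these data known. Depth does not apply to arrays, and 2 arrays a group limit the precision. Samples with the same replicate number correlated in their deviations at -0.07 to 0.17 with 2 pairs a comparison, so the numbers were not taken as pairs. Alternatives were quantile normalization, normexp with offset 50, the authors' log2 values, 2 other filters, the mean over probes, replicate and slide blocks, and leaving out each array.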

Additional observations from a re-analysis of the deposited data

Results flagged for a closer look

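The effect of MGT against LacZ differed between day 10 and day 3 for 4 of 40 collagen chains (10.0%, where 1.99% of all genes were called), by limma's test of the difference between the 2 effects, which uses 8 arrays. It was larger on day 10 for Col22a1 by 4.57 (SE 0.58, adjusted p = 9.4e-05) and for Col2a1 by 3.96 (SE 0.79, adjusted p = 0.0078), both log2 differences. It was lower on day 10 for Col6a2, with a difference of -1.40 (SE 0.23, adjusted p = 0.0013), and for Col12a1, with -1.16 (SE 0.26, adjusted p = 0.019). With normexp background correction and quantile normalization 1 chain was higher and 4 were lower.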

How the results depend on the processing

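Of 234 counts of called chains under other settings, 227 were within 1.5 times the reported count. On day 5, 7 chains were called in place of 11 without MGT D5 replicate 1 or without LacZ D5 replicate 1 (range 7 to 9 over the arrays left out). For LacZ D10 against D3 the count was 5 in place of 8 with normexp and quantile normalization and without LacZ D10 replicate 1 (range 5 to 7). For LacZ D14 against CF D0 it was 11 in place of 17 without CF D0 replicate 2 (range 11 to 15), and for iPSC2-CM D29 against D9 it was 22 and 20 in place of 12 without D29 replicates 1 and 2 (range 9 to 22). Of 288 called changes of single chains, 194 were called under every setting and 94 were lost under at least 1. Of these, 2 turned their direction: Col4a3 in iPSC2-CM D29 against D9 was -0.23 without D29 replicate 1 (adjusted p = 0.65) and 6.23 without replicate 2, and Col9a1 was 0.052 without D29 replicate 2 (adjusted p = 0.89) and -6.85 without replicate 1. The cause was not tested. With the replicate number as a block, the count was 5 in place of 4 for the difference between the day 10 and day 3 effects and 29 in place of 28 for iCM against iPSC-derived cells, and the other counts were the same. With slide as a random block, 13 chains were called for MGT D14 against LacZ D14 in place of 10, with 6 lower in place of 3, though these groups lay on different slides and slide and group cannot be told apart. Chains near background have only bounds, and 2 arrays a group limit all values.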
